A study of Sus scrofa with 30 samples.

Results

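The proteasome is the protease complex of the cell that degrades proteins tagged with ubiquitin. Its core, the 20S particle, is a barrel of alpha and beta rings in which PSMB5, PSMB6 and PSMB7 carry the proteolytic sites, and the 19S particle caps the barrel, binds the tagged protein and unfolds it with a ring of ATPases. In cells exposed to interferon gamma the catalytic subunits are exchanged for immune counterparts, of which PSMB10 takes the place of PSMB7, and the activator PSME1-PSME2 (PA28) can bind in place of the 19S cap. Immune proteasomes are best known for generating peptides for presentation at the cell surface.

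The genes described here are those whose pig NCBI symbol begins with PSMA to PSMG followed by a digit, with POMP, ADRM1, SEM1 and NFE2L1 added. The annotation holds 54 such identifiers, and 50 of the 13103 genes in the table of all embryos were among them. PSMA8, PSMB8, PSMB9 and PSMB11 were not analysed here, so PSMB10 was the 1 immune catalytic subunit that could be set against the 3 constitutive ones. PSMC3IP fits the naming pattern but encodes a partner of meiotic recombination and not a proteasome subunit. SEM1 was listed under 2 identifiers.

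Single pig embryos were flushed from German Landrace × Pietrain crossbred gilts whose cycles were synchronized with altrenogest and gonadotropins and that were inseminated with sperm of the same boar, and RNA of 5 female and 5 male embryos was sequenced on each of Days 8, 10 and 12 of pregnancy. The 3 stages run from hatching to the elongation of the conceptus. Each of the 30 libraries held 1 whole embryo, so fewer cells of a type and less RNA per cell cannot be told apart. Which gilt an embryo came from is not given. By the study's account a sow gave at least 1 female and 1 male embryo, so some embryos of a day were littermates. The p-values measure the spread between embryos and not between gilts. Each gilt was slaughtered on 1 of the days, so differences between days and between gilts cannot be told apart.

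The libraries held between 6068212 and 34002508 counts on genes, with a median of 22202723. Levels are TMM-scaled CPM (counts scaled to library size), and 3 counts corresponded to between 0.0823 and 0.434 CPM, a limit that covers counting error only. CPM does not correct for transcript length, so levels were compared between days and not between genes. The summed CPM of 5 trophectoderm markers lay between 20101 and 24801 on Day 8, 32437 and 49671 on Day 10, and 8272 and 25952 on Day 12. That sum was mostly KRT8 and KRT18, with Day 8 medians of 12406 and 10415 CPM. CDX2, GATA3 and TFAP2C had 173, 138 and 110.4 CPM. From Day 10 to Day 12 CDX2 fell with the keratins, GATA3 went from 93.1 to 144 CPM to 169 to 463 CPM, and TFAP2C overlapped. The 4 hypoblast markers summed to 236 to 329, 119 to 159 and 105 to 1071 CPM on Days 8, 10 and 12. The 3 epiblast markers summed to 27.1 to 46.7 CPM at first and to 0.640 to 4.05 CPM at the end. Female embryo 245 of Day 12 was the library with the fewest counts, and together with female embryo 271 it stood apart from the other Day 12 embryos for several genes below.

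The constitutive subunits moved by a log2 fold change of at most 0.77 in either direction between stages. The immune subunit PSMB10 and both subunits of the PA28 activator rose at each step. Differentially expressed genes (DEG) between days were called at a false discovery rate (FDR) below 0.001 together with a log2 fold change over 1 in either direction, with edgeR's quasi-likelihood test. From Day 8 to Day 10, 2 of the 50 genes were DEG with higher levels (PSMB10 and PSME2) and 0 were DEG with lower levels, beside 9.88% and 4.20% of all genes. From Day 10 to Day 12 the DEG were PSMB10, PSME1 and PSME2, all higher, and 0 were lower, beside 14.9% and 8.39% of all genes. With the robust GLM that the methods of the study name, and with these days alone in the fit, PSMB10 was no longer a DEG in this step, which left 2. The same 3 genes were DEG between Days 8 and 12, where 22.0% of all genes were DEG with higher and 10.4% with lower levels.

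At an FDR under 0.05 with any fold change, 14 genes were higher and 18 lower on Day 10 than on Day 8, where all genes gave 29.4% and 26.7%. Between Days 10 and 12, 9 were higher and 12 lower, beside 32.6% and 27.1% of all genes. That balance depended on the setting. With library size alone in place of TMM scaling, which moved the median log2 fold change of all genes from 0.04 to 0.24, 18 were higher and 2 lower, and without embryos 245 and 271, 9 were higher and 22 lower. In the first step library size alone gave 5 higher and 25 lower. Between Days 8 and 12, 12 were higher and 22 lower, beside 40.1% and 33.3%. Every Day 12 embryo lay above every Day 8 embryo for 6 of the 50 genes, beside 15.7% of all genes, and below for 11, beside 16.0%. The 6 were PSMC3, PSMA7, PSMB6, PSMB10, PSME1 and PSME2, and the 11 included 6 non-ATPase subunits of the 19S cap.

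**Figure D1:**
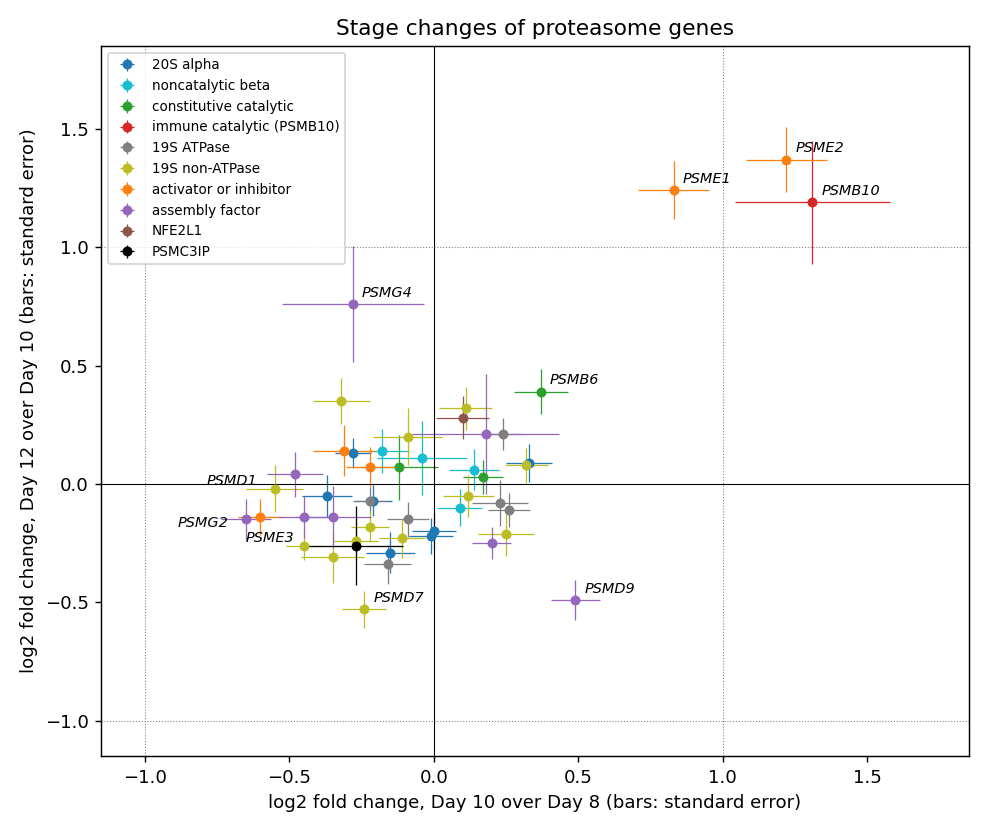
Log2 fold changes of 49 of the 50 genes from Day 8 to Day 10 (x axis) and from Day 10 to Day 12 (y axis), with standard errors as bars, colours for the role in the complex and dotted lines at a log2 fold change of 1. PSMB10, PSME1 and PSME2 lie apart at the upper right, the 33 constitutive subunits lie between -0.55 and 0.39 on both axes, and the SEM1 identifier on chromosome 13 is left out.

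PSMB10 (gene 733626; chromosome 6, 28544910 to 28547609 of Sscrofa11.1; the MECL-1 subunit, which cleaves after basic residues as PSMB7 does) had 1.41, 1.71 and 2.48 CPM as lowest, median and highest value on Day 8. On Day 10 these values were 2.54, 3.22 and 7.13 CPM, and on Day 12 they were 5.87, 7.55 and 30.2 CPM. Days 8 and 10 did not overlap, and neither did Days 8 and 12, whereas the highest Day 10 embryos lay within the range of Day 12. The rise was 2.48-fold from Day 8 to Day 10 (log2 fold change 1.31, SE 0.267, FDR 1.19e-04) and 2.28-fold from Day 10 to Day 12 (1.19, SE 0.260, FDR 2.27e-04). These values rest on 23 to 266 counts per embryo.

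The Day 10 embryos fell into separate ranges for PSMB10 that followed their numbers. The 6 embryos numbered 315 to 336 had 2.54 to 3.22 CPM, and the 4 numbered 433 to 454, of which a pair was female and a pair male, had 5.92 to 7.13 CPM. PSMB10 was the 1 gene of the 50 whose later-numbered embryos all lay above the others, and for 0 genes they all lay below. Over all genes these shares were 2.76% and 1.34%, so neither split was more frequent among the 50 genes than among genes at large. The split alone therefore does not set PSMB10 apart. What the numbers stand for is not given, the split was described after the values were seen, and its part in the result was not tested beyond the values within each range. With embryos 315 to 336 as the Day 10 group, the log2 fold change over Day 8 was 0.80 (FDR 0.0200), short of the DEG threshold, and that of Day 12 over Day 10 was 1.71 (FDR 1.91e-05). With embryos 433 to 454 the same values were 1.84 (FDR 4.04e-05) and 0.65 (FDR 0.110), so the second step no longer passed either threshold.

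The height of the Day 12 step also depended on female embryo 245, which had 30.2 CPM while the other 9 embryos had 5.87 to 12.8 CPM. Without it the log2 fold change from Day 10 to Day 12 was 0.84 (FDR 4.38e-04), below the fold that a DEG requires. Without both embryo 245 and embryo 271 (12.8 CPM) it was 0.73 (FDR 0.00142). With all embryos the robust GLM gave 0.93 (FDR 3.27e-05), and the fit of Days 10 and 12 alone gave 1.18 with an FDR of 0.00268, so the DEG threshold was missed with both.

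PSMB7, the constitutive subunit at the same position of the ring (chromosome 1, 265172257 to 265235389), had 237, 266 and 281 CPM as lowest, median and highest value on Day 8, and 219, 243 and 269.6 CPM on Day 10. On Day 12 it had 181, 206 and 466 CPM, and the 3 days overlapped. Its log2 fold changes were -0.12 (SE 0.136, FDR 0.486) and 0.07 (SE 0.136, FDR 0.688). The Day 12 value combined 466 and 433 CPM in female embryos 245 and 271 with 181 to 263 CPM in the other 8, and without these embryos PSMB7 fell by 0.24 on the log2 scale from Day 10 to Day 12 (FDR 9.67e-04).

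Unlike the ratios of PSMB10 to PSMB5 and to PSMB6 given below, the ratio of PSMB10 to PSMB7 separated the 3 days completely. Within an embryo it does not depend on depth. On the log2 scale it averaged -7.17 ± 0.26 (SD, n = 10), -5.85 ± 0.52 (SD, n = 10) and -4.76 ± 0.37 (SD, n = 10) on Days 8, 10 and 12, with ranges of -7.47 to -6.73, -6.57 to -5.21 and -5.11 to -3.94 in that order. The mean log2 ratio rose by 1.31 from Day 8 to Day 10, which is 2.48-fold, and by 1.10 from Day 10 to Day 12, which is 2.14-fold. A two-sided permutation test gave p = 6e-05 for each step, which remained 6e-05 after adjustment over the 2 tests. With no overlap between days, this p is set by the numbers of embryos and resamples and not by the size of the step. It also treats the embryos of a day as independent, although some were littermates.

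Day 10 held both number ranges apart for this ratio as well, from -6.57 to -6.12 in embryos 315 to 336 and from -5.35 to -5.21 in embryos 433 to 454. The first step was 0.92 with the former and 1.89 with the latter, and the second step was 1.49 and 0.52. In female embryos alone the steps were 1.24 and 1.33, and in male embryos alone 1.38 and 0.87. Since the days did not overlap, a permutation test on any such subset can only return its smallest p, and none is given.

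**Figure D2:**
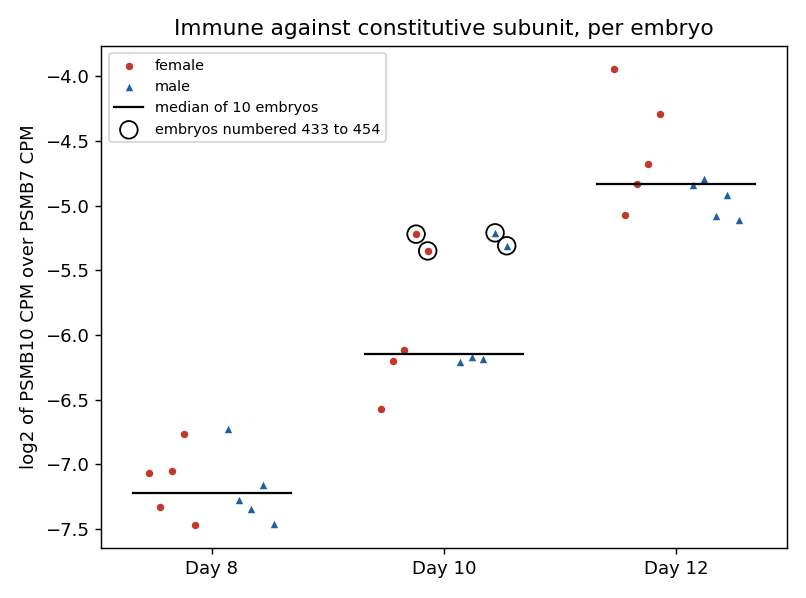
Log2 ratio of PSMB10 CPM to PSMB7 CPM in each of the 30 embryos by day, with female embryos as red circles, male embryos as blue triangles and a line at the median of the 10 embryos. The days do not overlap, and the 4 ringed Day 10 embryos numbered 433 to 454 lie between -5.35 and -5.21, above the other 6 of that day.

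PSMB5 and PSMB6, the other constitutive catalytic subunits, carry the chymotrypsin-like and caspase-like activities. PSMB6 (chromosome 12, 52096009 to 52098164) had 126, 148 and 159 CPM as lowest, median and highest value on Day 8, then 153, 191 and 211 CPM, then 191, 232 and 353 CPM. Day 12 lay above Day 8 without overlap, and the log2 fold changes of 0.37 (SE 0.0942, FDR 0.00130) and 0.39 (SE 0.0941, FDR 7.64e-04) both passed the wider threshold. With a log2 fold change of 0.76 from Day 8 to Day 12, PSMB6 had the largest rise of the 33 constitutive subunits. PSMB5 (chromosome 7, 76014576 to 76021922) had 159 to 194 CPM on Day 8, 188 to 213 on Day 10 and 176 to 292 on Day 12, with log2 fold changes of 0.17 (FDR 0.0401) and 0.03 (FDR 0.704). The first call was lost in 11 of 30 repeats that left out 1 embryo each, with FDR values of 0.0518 to 0.0734 in those 11 and log2 fold changes of 0.15 to 0.19 over all 30. With library size in place of TMM scaling the value was -0.01.

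PSMB5 and PSMB6 have no immune partner in these values. Set against them in the same embryo, the mean log2 ratio of PSMB10 to PSMB5 was -6.60, -5.58 and -4.52 on Days 8, 10 and 12. That of PSMB10 to PSMB6 was -6.30, -5.47 and -4.75. Both ratios overlapped between Days 8 and 10 and between Days 10 and 12, but not between Days 8 and 12. With PSMB5 the ranges were -6.89 to -6.12, -6.30 to -4.70 and -5.02 to -2.70 in day order. With PSMB6 they were -6.68 to -5.82, -6.16 to -4.40 and -5.21 to -3.30.

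PSME1 and PSME2 encode the alpha and beta subunits of PA28, an interferon-inducible ring that opens the 20S gate, and they are neighbours on chromosome 7 (75161830 to 75164531 and 75154570 to 75157871). PSME1 shares 88 bases with EMC9 in the annotation. PSME1 had 3.43, 4.20 and 5.71 CPM as lowest, median and highest value on Day 8, then 5.34, 7.55 and 9.76 CPM on Day 10 and 12.6, 17.3 and 21.9 CPM on Day 12. PSME2 had 1.92, 2.23 and 3.21 CPM, then 4.05, 5.40 and 7.73 CPM, then 8.05, 13.9 and 20.2 CPM. PSME2 separated all 3 days without overlap, and PSME1 separated Day 12 from the earlier days, while its lowest Day 10 embryo lay within the Day 8 range.

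PSME1 rose 1.78-fold to Day 10 (log2 fold change 0.83, SE 0.123, FDR 1.41e-06) and 2.37-fold to Day 12 (1.24, SE 0.122, FDR 2.92e-10). PSME2 rose 2.32-fold (1.22, SE 0.139, FDR 1.58e-08) and 2.58-fold (1.37, SE 0.136, FDR 4.2e-10). Unlike PSMB10, neither gene separated the number ranges of Day 10, and both remained DEG from Day 10 to Day 12 without embryos 245 and 271, with log2 fold changes of 1.27 and 1.26. The log2 ratio of PSME1 to PSME2 averaged 0.84 ± 0.27, 0.47 ± 0.20 and 0.37 ± 0.36 (SD, n = 10) on Days 8, 10 and 12.

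The other activators went a different way. PSME3, the nuclear PA28 gamma, had 262, 283 and 324 CPM as lowest, median and highest value on Day 8, 154, 199 and 223 CPM on Day 10, and 138, 182 and 199 CPM on Day 12. It fell by 0.60 on the log2 scale to Day 10 (SE 0.0769, FDR 1.4e-07) with no overlap between these days, and its second log2 fold change was -0.14 (FDR 0.121). The mean log2 ratio of PSME1 to PSME3 was -6.04, -4.62 and -3.25 on the 3 days, and that of PSME2 to PSME3 was -6.88, -5.10 and -3.62. PSME4, which encodes the nuclear activator PA200, had 126 to 172 CPM on Day 8, 95.2 to 145 on Day 10 and 85.1 to 166 on Day 12, with overlap throughout. It fell by 0.31 to Day 10 (FDR 0.0146), and PSMF1, the inhibitor PI31, fell by 0.22 (FDR 0.0269; the call was lost without male embryo 111), while their second values of 0.14 (FDR 0.286) and 0.07 (FDR 0.499) did not pass.

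**Figure D3:**
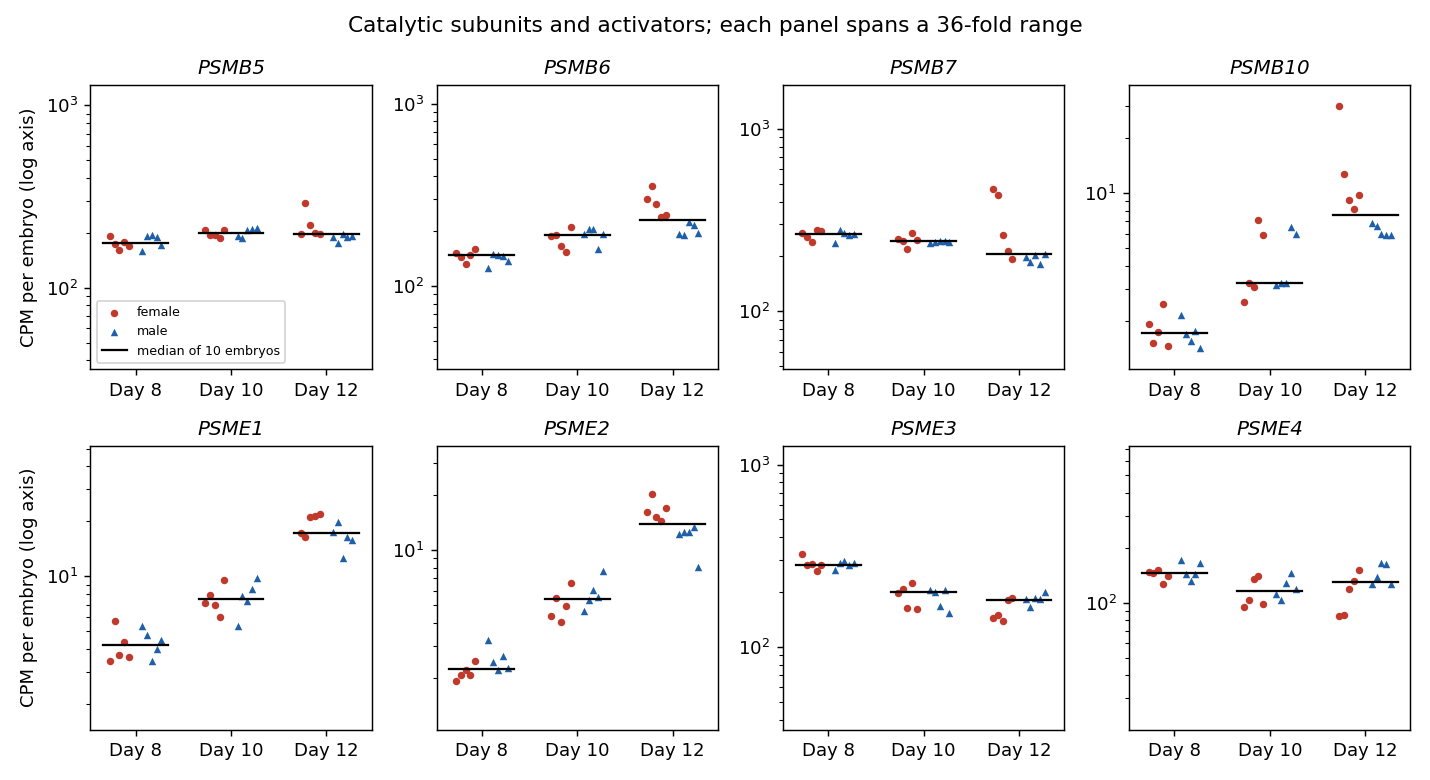
CPM of the 4 catalytic subunits measured and of the 4 activators in each embryo, on log axes that span the same fold range in every panel, with female embryos as red circles, male embryos as blue triangles and a line at the median of each day. PSMB10, PSME1 and PSME2 climb from day to day, PSME3 falls to Day 10, and 2 female embryos of Day 12 lie above the rest for PSMB7.

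The 33 constitutive subunits of the 26S proteasome comprised 14 of the core and 19 of the cap. None was a DEG in any comparison. Between Days 8 and 12, 22.0% of all genes were DEG with higher and 10.4% with lower levels. From Day 8 to Day 10, 8 were higher, 11 lower and 14 did not pass an FDR of 0.05. Of all genes 29.4% were higher and 26.7% lower. The median log2 fold change was -0.09 beside 0.03 over all genes. From Day 10 to Day 12, 4 were higher, 10 lower and 19 did not pass, beside 32.6% and 27.1% of all genes, with a median of -0.07 beside 0.04. From Day 8 to Day 12, 7 were higher, 16 lower and 10 did not pass, beside 40.1% and 33.3%, with a median of -0.05 beside 0.09. Every Day 12 embryo lay above every Day 8 embryo for 3 of the 33, beside 15.7% of all genes, and below for 9, beside 16.0%. Under scaling by library size alone the first 2 medians were -0.27 and 0.13, where those of all genes were -0.15 and 0.24, so the sign of the second depended on the scaling while both subunit medians stayed below those of all genes. That scaling also ended 9 of the 32 calls among the 50 genes in the first step, those of PSMC3, PSMD8, PSMA7, PSMB6 and POMP included, and 10 of 21 in the second, those of PSMC6, PSMD11, PSMD14, PSMA1 and POMP included.

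Of the 7 subunits of the alpha ring, which gates the entry of substrates, 1 was higher and 6 lower on Day 12 than on Day 8, where 40.1% of all genes were higher and 33.3% lower. PSMA7 was the exception, with 118 to 138 CPM on Day 8, 139 to 175 on Day 10 and 143 to 229.9 on Day 12, and it rose by a log2 fold change of 0.33 (FDR 7.87e-04) to Day 10. PSMA7 shares 132 bases with LSM14B in the annotation. PSMA5 fell by 0.37 on the log2 scale (FDR 5.99e-04), from 158 to 193 CPM on Day 8 to 111 to 157 CPM on Day 10, and PSMA1 fell by 0.29 to Day 12 (FDR 0.00418). PSMA6 fell by 0.28 to Day 10 (FDR 3.1e-04) and had the highest second value of the ring, 0.13, which did not pass (FDR 0.0772). Among the 4 noncatalytic beta subunits, PSMB1 to PSMB4, none passed in either step, with log2 fold changes from -0.18 (PSMB1) to 0.14 (PSMB4) in the first step and from -0.10 (PSMB2) to 0.14 (PSMB1) in the second.

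The 19S cap showed opposite directions among its subunits. Of the 13 non-ATPase subunits 2 were higher and 7 lower on Day 10 than on Day 8, with a median log2 fold change of -0.22, beside 29.4% and 26.7% of all genes. Again 2 were higher and 7 lower on Day 12 than on Day 8, with a median of -0.34, beside 40.1% and 33.3%. PSMD1, a scaffold of the base, had 289.7, 318 and 363 CPM as lowest, median and highest value on Day 8 and 188, 223 and 256 CPM on Day 10, without overlap, and fell by 0.55 on the log2 scale (SE 0.0985, FDR 2.04e-05). It spans HTR2B in the annotation. PSMD11, a lid subunit, fell in both steps, by 0.45 (FDR 4.5e-07) and by 0.26 (FDR 5.76e-04).

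PSMD7, the partner of the deubiquitinase PSMD14 in the lid, had 129 to 173 CPM on Day 8, 99.8 to 149.8 on Day 10 and 67.6 to 98.4 on Day 12. Its Day 12 embryos all lay below those of both earlier days, and it fell by 0.24 (FDR 0.00900) and then by 0.53 (SE 0.0763, FDR 4.25e-07) on the log2 scale. PSMD14 itself fell by 0.27 (FDR 0.00321) and 0.24 (FDR 0.00783). PSMD12 fell by 0.35 (FDR 0.00660) and 0.31 (FDR 0.0167), and PSMD6, which shares 8483 bases with ATXN7, by 0.22 (FDR 0.00517) and 0.18 (FDR 0.0197). With library size alone as the scaling, the second value of PSMD6 changed its sign.

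PSMD8 went the other way, with a log2 fold change of 0.32 to Day 10 (FDR 5.09e-04). PSMD13 fell by 0.32 to Day 10 (FDR 0.00551) and rose by 0.35 to Day 12 (FDR 0.00257), where female embryo 245 had 342 CPM and the others 169 to 236 CPM. The ubiquitin receptors PSMD4 and ADRM1 did not pass in either step, with values of 0.12 and -0.05 for PSMD4 and of -0.09 and 0.20 for ADRM1.

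The 6 ATPases PSMC1 to PSMC6 form the ring that unfolds the substrate. From Day 8 to Day 10, 3 were higher, 1 was lower and 2 did not pass, beside 29.4% higher and 26.7% lower of all genes. PSMC4 had the largest rise of this step, from 107 to 134 CPM on Day 8 to 123 to 151 on Day 10 (log2 fold change 0.26, FDR 0.00330), and PSMC2 the 1 fall, by 0.22 (FDR 0.00239), from 150.4 to 186 CPM to 119 to 160.0 CPM. PSMC3 rose in both steps, from 104 to 122 CPM on Day 8 to 117 to 139 on Day 10 and 132 to 202 on Day 12, with log2 fold changes of 0.24 (FDR 0.00330) and 0.21 (FDR 0.00752). PSMC6 moved oppositely, from 135 to 161 CPM to 101 to 155 and then 80.4 to 121 CPM, with a first value of -0.16 (FDR 0.0845) and a fall of 0.34 in the second step (FDR 5.59e-04). Days 8 and 12 did not overlap for either gene.

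Assembly factors hold the rings together until the particle is complete and then leave it. PSMG1 and PSMG2, the heterodimer on which the alpha ring is built, both fell to Day 10, by 0.45 (SE 0.0902, FDR 1.02e-04) and 0.65 (SE 0.0868, FDR 2.31e-07) on the log2 scale. PSMG2 had 72.0, 80.8 and 89.0 CPM as lowest, median and highest value on Day 8, 42.4, 50.5 and 64.0 CPM on Day 10 and 34.9, 44.3 and 63.1 CPM on Day 12, and every later embryo lay below every Day 8 embryo. POMP, which guides the beta ring and is destroyed when the core matures, rose by 0.20 (FDR 0.0137) and fell by 0.25 (FDR 0.00164), with 113 to 144, 139 to 184 and 111 to 163 CPM on the 3 days. The annotation lists the POMP identifier as a long noncoding RNA.

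PSMD9, a chaperone of the ATPase ring, was highest on Day 10. It had 57.0, 64.1 and 79.3 CPM as lowest, median and highest value on Day 8, 83.2, 91.4 and 101 CPM on Day 10 and 52.5, 60.0 and 96.3 CPM on Day 12. It rose by 0.49 (FDR 1.51e-05) without overlap and fell by 0.49 (FDR 1.32e-05), and Days 8 and 12 differed by 0.01 (FDR 0.945). PSMD5 and PSMD10, chaperones of the same ring, fell by 0.35 (FDR 0.0235) and 0.48 (FDR 1.1e-04) to Day 10.

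PSMG3 did not pass in either step (0.18 and 0.21). PSMG4, its partner, had a first log2 fold change of -0.28 (FDR 0.339) and a second of 0.76 (SE 0.247, FDR 0.00872). On Day 12 PSMG4 had 111 and 83.7 CPM in female embryos 245 and 271 and 35.5 CPM in female embryo 289, while the other 7 had 16.8 to 25.8 CPM, within or below the Day 8 range of 23.1 to 33.4. Without embryos 245 and 271 the rise of PSMG4 no longer passed.

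NFE2L1 (Nrf1), the transcription factor that raises proteasome genes when the proteasome is impaired, had 91.3, 98.7 and 114 CPM as lowest, median and highest value on Day 8, 86.3, 101 and 140.4 CPM on Day 10 and 92.0, 133 and 159 CPM on Day 12. The days overlapped, and its log2 fold changes were 0.10 (FDR 0.368) and 0.28 (SE 0.0907, FDR 0.00863). Of 14 genes for its processing by p97 and its relatives, 1 was higher and 5 lower on Day 10 than on Day 8, beside 29.4% and 26.7% of all genes. From Day 10 to Day 12, 4 were higher and 4 lower, close to the 32.6% and 27.1% of all genes. NGLY1, the glycanase that NFE2L1 needs for activity, rose by 0.86 (FDR 2.05e-07) and fell by 0.39 (FDR 0.00369). NFE2L2 rose by 0.82 to Day 12 (FDR 1.04e-09) while NFE2L3, with 0.492 to 2.0 CPM on Day 12, fell by 1.40 (FDR 2.3e-06).

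Around the proteasome act factors that deliver or trim its substrates. Of 14 such proteasome-bound and shuttle factors measured, 2 were higher and 9 lower from Day 8 to Day 10, beside 29.4% and 26.7% of all genes. From Day 10 to Day 12, 2 were higher and 8 lower, beside 32.6% and 27.1%, and from Day 8 to Day 12, 0 were higher and 12 lower, beside 40.1% and 33.3%. RAD23B, a ubiquitin receptor that shuttles substrates, fell by 0.33 (FDR 0.00230) and 0.59 (FDR 1.44e-06), from 476 to 563 CPM on Day 8 to 176 to 329 CPM on Day 12. UBQLN1 rose by 0.21 (FDR 0.0323) and then fell by 0.78 (FDR 2.29e-09), and the ligase UBE3A fell by 0.59 (FDR 5.55e-08) and 0.26 (FDR 0.00309). Of the 6 genes for ubiquitin and its activating enzymes, 4 were higher and 1, UBA6, was lower on Day 12 than on Day 8, beside the same shares of all genes, with UBA1 at a log2 fold change of 0.58 (FDR 5.69e-06).

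Genes of peptide loading and of the response to interferon gamma were measured under 12 identifiers, of which 2 belong to the same gene and are both counted. Of the 12, 6 were higher and 1 lower from Day 8 to Day 10, beside 29.4% and 26.7% of all genes, and 7 were higher and 0 lower from Day 10 to Day 12, beside 32.6% and 27.1%. From Day 8 to Day 12, 10 were higher and 0 lower, beside 40.1% and 33.3%, and 9 of these were DEG, beside 22.0%. TAPBP (tapasin) had 1.69 to 2.88 CPM on Day 8, 2.43 to 8.02 on Day 10 and 9.39 to 60.9 on Day 12, with log2 fold changes of 0.96 (FDR 0.00196) and 2.79 (FDR 6.33e-11). IRF1 and SOCS1 had -0.24 and -0.30 in the first step, not passing, and rose by 1.92 (FDR 3.4e-07) and 2.26 (FDR 1.4e-09) in the second. TAP1, which carries the peptides into the endoplasmic reticulum, rose by 1.53 in the second step alone (FDR 1.87e-04), and TAP2 did not pass in either.

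Of a list of 6 leukocyte markers ITGAM was measured, with 36.3 to 50.6 CPM on Day 8, 30.4 to 40.6 on Day 10 and 24.7 to 72.5 on Day 12. Of 2 markers of endometrial epithelium MUC1 was measured, with 0 to 0.521, 0.259 to 9.50 and 2.76 to 10.1 CPM. The other markers of both lists were not analysed here. The part of maternal or immune cells in the rise of PSMB10 and PA28 was not tested.

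Embryos of a day were more alike in their constitutive subunits than in genes at large. The median SD of log2 CPM over the 33 subunits was 0.096, 0.130 and 0.251 on Days 8, 10 and 12, beside 0.227, 0.286 and 0.453 over all genes, which include genes of lower count. PSMB10 had SDs of 0.246, 0.549 and 0.722. Single embryos led many subunits at once. Male embryo 103 was lowest for 20 of the 33 subunits on Day 8 (60.6%, beside 16.0% of all genes), female embryo 336 for 16 on Day 10 (48.5%, beside 7.38%), and female embryo 271 was highest for 14 on Day 12 (42.4%, beside 15.3%).

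Female and male embryos were compared within each day at an FDR under 0.05. Of the 49 genes tested, 1 was called on Day 8 and 0 on Days 10 and 12, beside 0.658%, 0.223% and 0.123% of all genes. At an unadjusted p under 0.05 the counts were 1, 0 and 15 of 49, where all genes gave 524 of 11405, 275 of 11675 and 2775 of 12220. DESeq2 called 1, 0 and 1, the last being PSMB6.

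The gene called on Day 8 was PSMD10 (gankyrin), which lies on the X chromosome (88540261 to 88548593) and was the 1 X-linked gene among the 50. The 5 female embryos had 76.7, 73.7, 78.0, 70.0 and 76.3 CPM and the 5 male embryos 53.3, 63.0, 61.8, 57.7 and 59.0 CPM. All females lay above all males, with a log2 fold change of 0.35 (SE 0.0657, FDR 0.0334). The call was lost in 8 of 10 repeats that left out 1 embryo each, while the log2 fold change stayed between 0.32 and 0.37 in all 10. It was kept with the robust GLM (FDR 0.00622) and with DESeq2 (FDR 1.05e-04). PSMD10 shares 2670 bases with ATG4A in the annotation, and whether the counting used the strand is not given in the sources used here.

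On Day 10 PSMD10 had 52.5, 55.8, 40.6, 64.3 and 47.9 CPM in females and 50.1, 44.3, 40.2, 47.5 and 37.8 CPM in males, and on Day 12 it had 53.0, 46.5, 39.6, 54.9 and 52.8 CPM in females and 50.6, 60.4, 39.5, 44.9 and 51.2 CPM in males. The sexes overlapped on both days, with log2 fold changes of 0.24 (FDR 1.0) and 0.03 (FDR 0.912). The sex difference on Day 12 minus that on Day 8 was -0.35 (SE 0.165, unadjusted p = 0.0457, FDR 0.221 in edgeR's interaction test), and on Day 10 minus Day 8 it was -0.10 (FDR 1.0), so a change between days did not pass.

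The 5 females all exceeded the 5 males for 1 of the 50 genes on Day 8 (PSMD10), 0 on Day 10 and 3 on Day 12, beside 1.10%, 0.565% and 1.62% of all genes. They all fell short of the males for 0, 0 and 1, the last being PSMD5, beside 0.427%, 0.267% and 2.82%. The 3 genes of Day 12 were PSMB10, PSME2 and PSMB6. PSMB10 had 30.2, 12.8, 9.15, 8.22 and 9.77 CPM in females and 6.89, 6.62, 5.99, 5.87 and 5.92 CPM in males. PSME2 had 16.2, 20.2, 15.1, 14.4 and 17.1 CPM against 12.2, 12.5, 12.5, 13.4 and 8.05 CPM.

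None of these passed the adjusted threshold. PSMB10 had a log2 fold change of females over males of 1.20 (SE 0.358, FDR 0.198), PSME2 one of 0.53 (SE 0.177, FDR 0.198) and PSMB6 one of 0.51 (SE 0.145, FDR 0.198). Without female embryos 245 and 271 the values were 0.53, 0.41 and 0.33, each with an FDR of 0.627. These genes were singled out after their values were seen. On Days 8 and 10 the log2 fold changes of PSMB10 between sexes were 0.08 and -0.02.

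**Figure D4:**
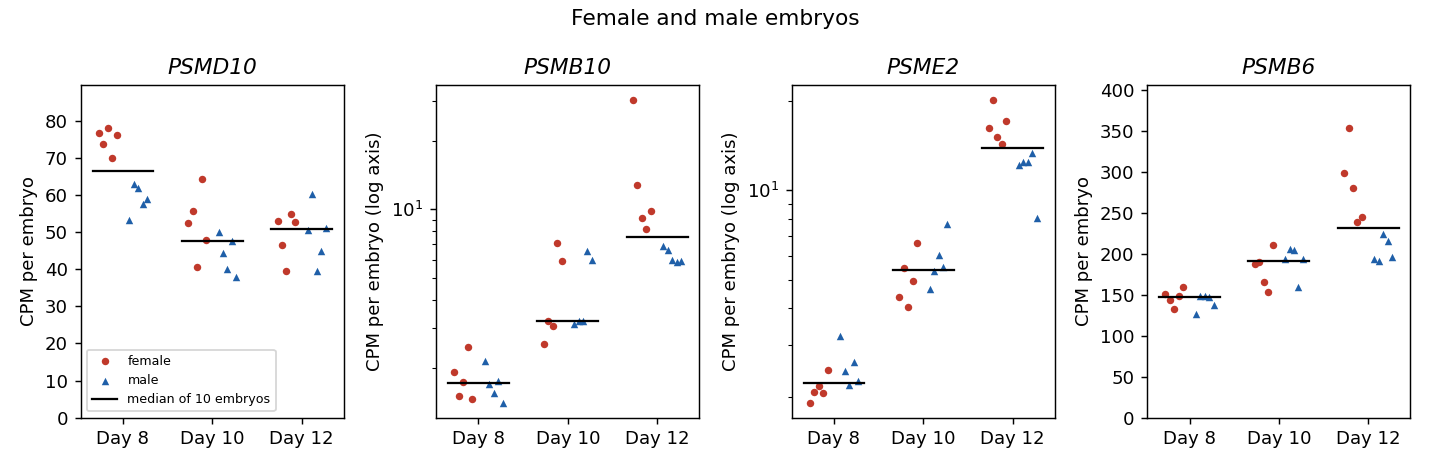
CPM of PSMD10, PSMB10, PSME2 and PSMB6 in female (red circles) and male (blue triangles) embryos by day, on linear axes for PSMD10 and PSMB6 and log axes for the others, with a line at the median of 10 embryos. The sexes are apart for PSMD10 on Day 8 and for the other 3 genes on Day 12.

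SEM1, a small subunit of the 19S lid, was listed under 2 identifiers with different patterns. That on chromosome 9 (gene 100524330; 76324550 to 76349261, listed as a long noncoding RNA) had 97.8 to 117 CPM on Day 8, 105 to 129 on Day 10 and 115 to 240.4 on Day 12, and it rose by 0.32 on the log2 scale in the second step (FDR 0.00301). That on chromosome 13 (gene 100155621; 144628949 to 144629377, listed as protein coding) had 1 to 15 counts in 26 embryos. The other 4 embryos were male: numbers 333 and 453 of Day 10 with 480 and 260 counts (17.8 and 9.39 CPM), and numbers 275 and 286 of Day 12 with 411 and 102 counts (16.8 and 2.97 CPM).

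The fitted log2 fold change of 2.97 from Day 8 to Day 10 (FDR 0.0151) rested on embryos 333 and 453, since the other 8 Day 10 embryos had at most 0.348 CPM and Day 8 embryos had 0.158 to 0.557 CPM. It was 1.74 (FDR 0.121) without embryo 333 and -0.49 with the robust GLM. The chromosome 9 identifier had 113, 125, 135 and 137 CPM in the same 4 embryos, inside the range of their day. The sequences of both identifiers were not compared, and the part of wrongly assigned reads was not tested. The 4 embryos were noticed in the data, so no test was made of their sex.

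**Figure D5:**
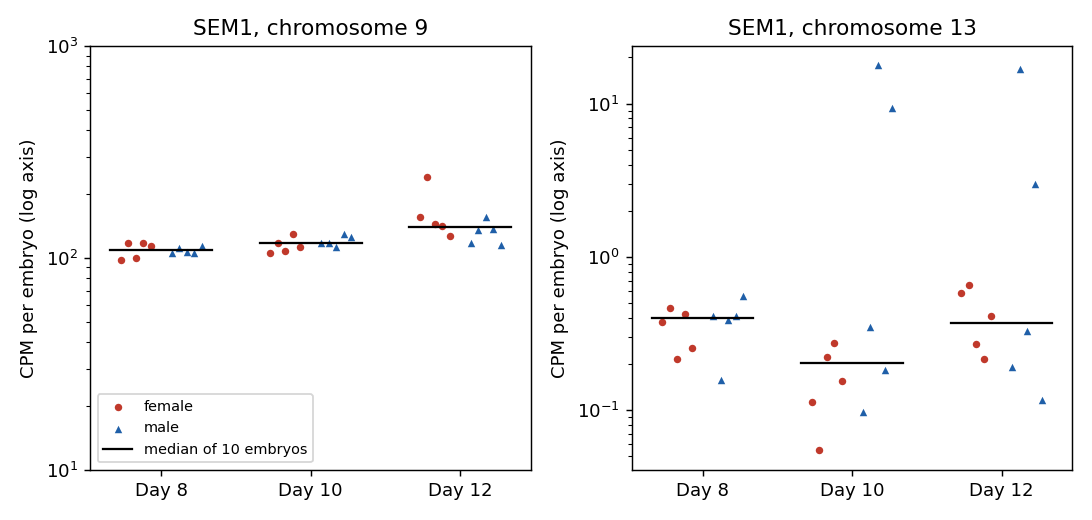
CPM of both SEM1 identifiers in each embryo by day on log axes, with female embryos as red circles, male embryos as blue triangles and a line at the median of 10 embryos. The chromosome 9 identifier lies between 97.8 and 240.4 CPM in every embryo, and on chromosome 13 4 male embryos with 2.97 to 17.8 CPM stand above the other 26.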

How the data were processed

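A stranded mRNA kit was used for each embryo. The deposited tables list unnormalized read counts for each NCBI gene identifier, which the authors obtained in Galaxy after Trim Galore, with 3 bases cut off at the 5′ end, from alignments to Sscrofa11.1 and its NCBI annotation, keeping genes over a CPM cutoff. The aligner, the counter and the cutoff are not given in the sources used here. Days were compared in the table of all 30 embryos (13103 genes) and sexes in the table of each day (11405, 11675 and 12220 genes). Symbols and positions came from the RefSeq gene table of the same assembly.

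Genes were tested with edgeR 4.0.16 in R 4.3.3 (quasi-likelihood F test, robust, TMM factors, Benjamini-Hochberg over all genes), in 1 fit with 3 day groups, in 1 fit per day for sex, and in 6 groups for interactions. The threshold was 0.001 on the FDR with a log2 fold change over 1 between days, and 0.05 on the FDR between sexes. The log2 ratio of 2 genes used log2 CPM with a prior count of 2 and a two-sided permutation test over embryos (100000 resamples with 10 embryos a day, exact otherwise). Of 6 ratio tests planned, 2 were run, because PSMB8 and PSMB9 were not analysed here. Alternatives were the robust GLM that the methods of the study name, DESeq2 1.42.0, RLE factors, library size alone, filters on low counts (10 counts in 5 embryos, or 1 CPM on average), sex as a covariate, fits of only the 2 days compared, glmTreat with a minimum log2 fold of 1, prior counts of 0.5 and 5, 1 sex alone, and each embryo left out. Fits with part of the Day 10 embryos, or without embryos 245 and 271, were chosen after seeing the data. Code was tested on simulated data. Genes given in full are the catalytic subunits, PSME1 to PSME4, POMP, NFE2L1, DEG between days, X-linked genes, and in each other role the highest and lowest log2 fold change of each step; other members named were chosen after their values were seen. The genes and the pathway and marker lists were chosen with earlier results of these data known, and some genes of these lists are not reported here. No 2 of 60 pairs of embryos of a group agreed within sampling noise (chi-square per degree of freedom 7.64 or more). Python 3.11.15, pandas 2.3.3, numpy 2.4.6, scipy 1.17.1 and matplotlib 3.10.9 were used.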

Additional observations from a re-analysis of the deposited data

Results flagged for a closer look

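In 16 of 150 sets of 10 embryos (50 genes on 3 days), the highest or lowest embryo was farther from its neighbour than Dixon's 95% limit allows, where chance flags about 1 in 20 sets. All values are CPM. On Day 12 female embryo 271 was highest for PSMB5 (292, others 176 to 219.6), PSMB2 (184, others 108 to 134), PSMB4 (251, others 136 to 182), POMP (163, others 111 to 133) and the chromosome 9 identifier of SEM1 (240.4, others 115 to 156). Female embryo 245 of the same day was highest for PSMB10 (30.2, others 5.87 to 12.8) and PSMD13 (342, others 169 to 236) and lowest for PSMA2 (91.0, others 130.2 to 173).

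The chromosome 13 identifier of SEM1 was highest in male embryo 333 on Day 10 (17.8, others 0.0546 to 9.39) and in male embryo 275 on Day 12 (16.8, others 0.116 to 2.97). Female embryo 105 of Day 8 was highest for PSMC1 (196, others 161 to 178), PSMD5 (120.0, others 97.3 to 108) and PSMD9 (79.3, others 57.0 to 67.5). Male embryo 121 was highest for PSMC3 (122, others 104 to 113) and male embryo 103 lowest for PSMA6 (158, others 177 to 197) on the same day. On Day 10 female embryo 336 was lowest for PSMC2 (119, others 139 to 160.0).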

How the results depend on the processing

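Summary results, which include counts of called genes, were classed as unchanged in 585 of 607 repeats. That class allowed a count to shift, such as from 18 to 25 lower genes from Day 8 to Day 10 with library size alone. It also does not follow single calls, of which the same setting ended 10 of 21 from Day 10 to Day 12. The glmTreat test with a minimum log2 fold of 1 called 0 higher DEG in each of the consecutive steps. Library size alone gave 5 higher genes at an FDR under 0.05 from Day 8 to Day 10, and 18 higher and 2 lower from Day 10 to Day 12. With Day 10 embryos 315 to 336 alone, 1 gene was a higher DEG from Day 8 to Day 10. With embryos 433 to 454 alone, 8 were higher and 9 lower in the first step, and 4 higher and 6 lower in the second; that group held 4 embryos. Without embryos 245 and 271, 22 were lower from Day 10 to Day 12. Between sexes, leaving out 1 embryo gave 0 to 1 called genes on Day 8, and DESeq2 called 1 on Day 12. For the sex difference of Day 12 minus Day 8 the quasi-likelihood test called 0 of 50, with 23 at an unadjusted p under 0.05. Of all 13103 genes it called 0, with 2863 (21.8%) at that unadjusted p. The robust GLM called 1 of the 50 (PSMD5) and DESeq2 1 (PSMG4).

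For 12 single genes the values were recomputed under every alternative, and 19 values changed sign. With library size alone these were, from Day 8 to Day 10, PSMB5 (-0.01) and NFE2L1 (-0.09), and PSME3 from Day 10 to Day 12 (0.05). With the robust GLM they were the chromosome 13 SEM1 (-0.49 and 0.81 in the 2 steps), PSMB5 (-0.01) and PSMB7 (-0.17) from Day 10 to Day 12. Without embryos 245 and 271 they were PSMB5 (-0.04), PSMB7 (-0.24) and PSMD10 between sexes on Day 12 (-0.01). Leaving out 1 embryo gave, from Day 10 to Day 12, -0.04 to 0.06 for PSMB5, -0.07 to 0.11 for PSMB7, -2.13 to 0.89 for SEM1 on chromosome 13 and 0.00 to 0.09 for PSMD10, and -0.04 to 0.12 for PSMD10 between sexes on Day 12. Among the calls of the other genes at an FDR under 0.05, that of PSMD6 from Day 10 to Day 12 changed sign with library size alone. The cause was not tested. No paired analysis was possible because the labels number no embryos across groups. Genes with few counts limit the precision: PSMB10 rested on 23 to 78 counts per embryo on Day 8.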
